A study of Citrus sinensis and Citrus x aurantiifolia and Citrus x latifolia with 53 samples.

Results

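The 150 genes described here stood higher in leaves of water-stressed grafted lime trees than in leaves of irrigated trees, while their mean level in roots stayed within a narrow band. They were chosen from 24533 gene identifiers by their measured values. For each combination of scion and rootstock, the mean CPM (a gene's count scaled to a common library total) of water-deficit libraries was divided by that of irrigated libraries, with 1 CPM added to each, and the log2 ratios of the 4 combinations were averaged. A member had a mean leaf ratio of at least 1.5, a mean root ratio between -0.5 and 0.5 and a mean irrigated level under 400 CPM in both tissues, and of the 172 genes that met all of this the 150 with the highest leaf ratio were kept. In all, 512 identifiers reached the leaf limit, and 86 of them also had a mean root ratio of at least 1.5. The leaf and root responses to lack of water are therefore descriptions of what was chosen and carry no test of it.

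The trees carried a scion of triploid (3x) Persian lime (PL, Citrus latifolia) or of diploid (2x) Mexican lime (ML, Citrus aurantiifolia). Each scion stood on a tetraploid (4x) or diploid (2x) rootstock of Swingle citrumelo 4475. Names of combinations join scion and rootstock ploidy, as in PL4x. Leaves were sampled from the scion and roots from the rootstock, and tissue and genotype cannot be told apart. All trees grew for 2 years in 40 L pots; per combination 4 trees then went 9 days without irrigation (WD) and 3 stayed irrigated (Ctrl), 28 trees in all. The 53 libraries held 15 WD and 11 Ctrl leaf libraries and 15 WD and 12 Ctrl root libraries. Of PL2x, 1 WD leaf, 1 Ctrl leaf and 1 WD root library of this design were not among them. The question behind the design was whether extra chromosome sets in the rootstock or in the scion alter how a tree copes with drought.

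When soil dries, plants make the hormone abscisic acid, guard cells close the stomata, and leaf cells switch on genes for protective proteins, compatible solutes and surface lipids. Roots meet the dry soil directly and run a response of their own, so a gene can be induced in the shoot without a change below ground. Identifiers come without names in the files, and 0 of 24533 matched the sweet orange table at hand, so members are given by identifier, without a role, and pathway lists and cell type markers were not measured.

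Library totals spanned 3747153 to 54838385 counts for leaves and 1118899 to 27925992 counts for roots. The root library with the fewest counts, ML2x WD 4, held 0 counts for 42 of the members, and the leaf library with the fewest, PL2x Ctrl 1, held 0 counts for 31. CPM are not corrected for gene length, so levels are compared between samples and not between genes. Scaling moved the leaf ratios as a whole: for 15436 genes of at least 1 CPM on average in both tissues, the median mean leaf ratio was 0.31 on the library totals and 0.09 with TMM library sizes, a shift of -0.22. The median of the members was 1.82 on the totals and 1.61 with TMM sizes, and the lowest member stood at 1.29 with TMM sizes.

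In leaves the members together took 1.09 ± 0.576% of all counts in the 15 WD libraries and 0.222 ± 0.0378% in the 11 Ctrl libraries (SD). The median member stood at 23.7 ± 9.17 CPM in WD leaves, with libraries from 5.74 to 35.1 CPM, and at 5.41 ± 1.87 CPM in Ctrl leaves, from 2.03 to 8.83 CPM. In bulk tissue, more RNA per cell and more cells of one type cannot be told apart. In roots the share of counts was 0.904 ± 0.0966% in WD libraries and 0.902 ± 0.204% in Ctrl libraries, and the median member stood at 24.0 ± 4.90 CPM against 21.5 ± 3.52 CPM.

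**Figure D1:**
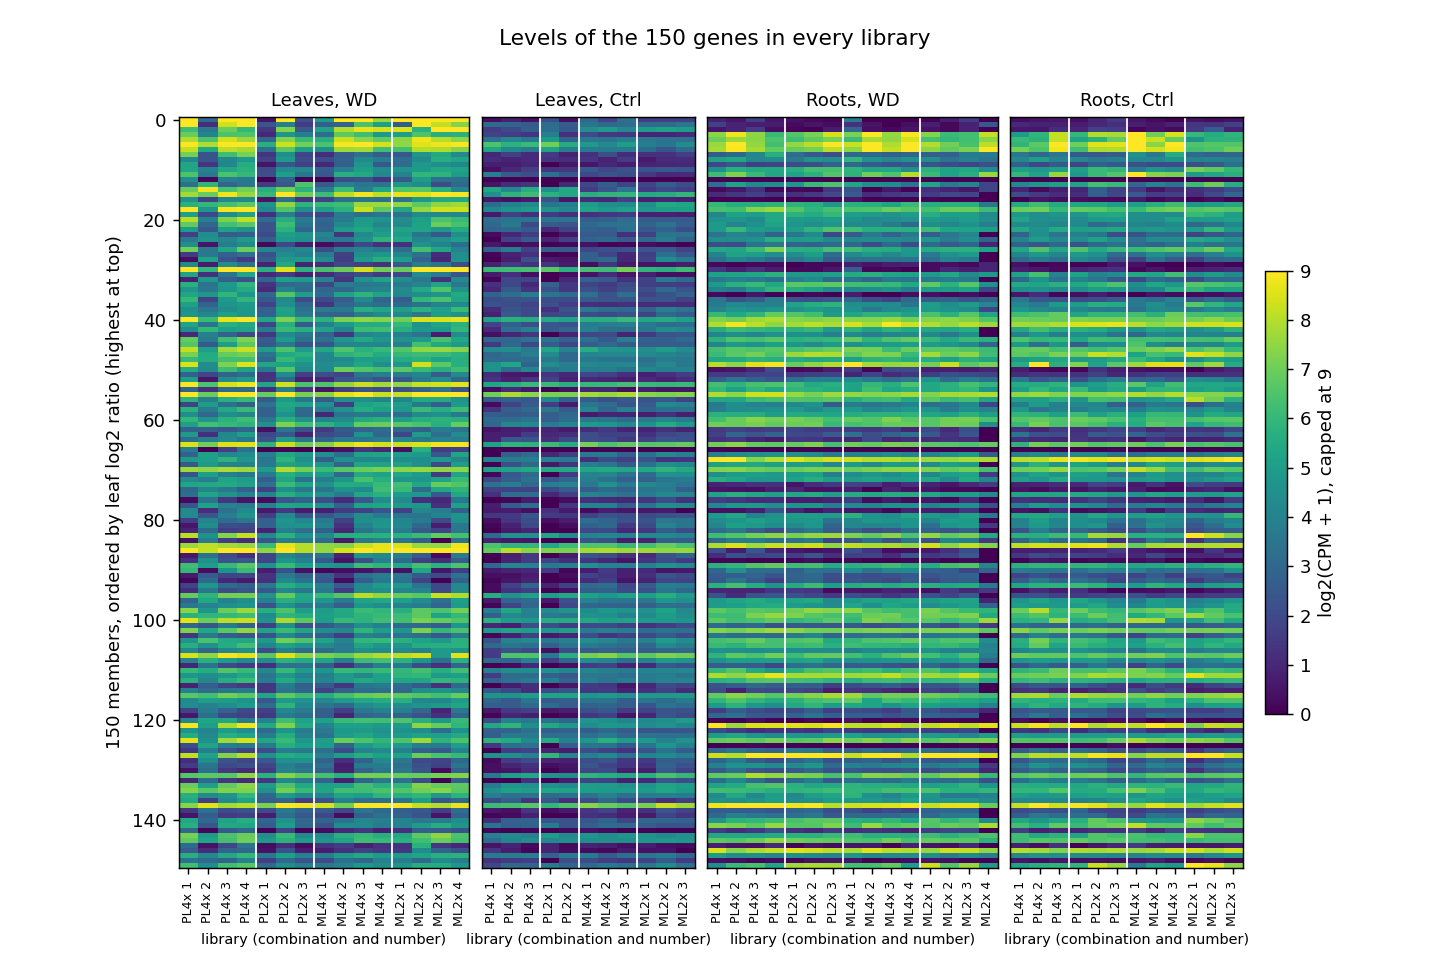
Levels of the 150 members (rows, ordered by mean leaf log2 ratio, highest at the top) in each of the 53 libraries (columns), as log2(CPM + 1) with the colour scale capped at 9. WD leaves are brighter than Ctrl leaves except in PL2x WD 1 and in part in ML4x WD 1, while the root panels look alike, apart from the shallow library ML2x WD 4.

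The leaf response was of different size in single trees. Median member levels were 31.3, 16.1, 29.0 and 35.1 CPM in the 4 PL4x WD leaf libraries, 5.74, 31.5 and 14.1 CPM in the 3 of PL2x, 11.5, 12.5, 28.1 and 26.0 CPM in the 4 of ML4x, and 24.8, 28.5, 28.2 and 32.7 CPM in the 4 of ML2x. In PL2x the WD library 1 stood below the highest of the 11 Ctrl leaf libraries, at 8.83 CPM. All other WD leaf libraries lay above that value. Only 2 members, Ciclev10024830m.g and Ciclev10010999m.g, named after their values were seen, had each of the 15 WD leaf libraries above each of the 11 Ctrl ones, where 0.0611% of all identifiers did. Without PL2x WD 1 and ML4x WD 1, a choice made after seeing the data, 38 members did, beside 2.02% of all identifiers.

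**Figure D2:**
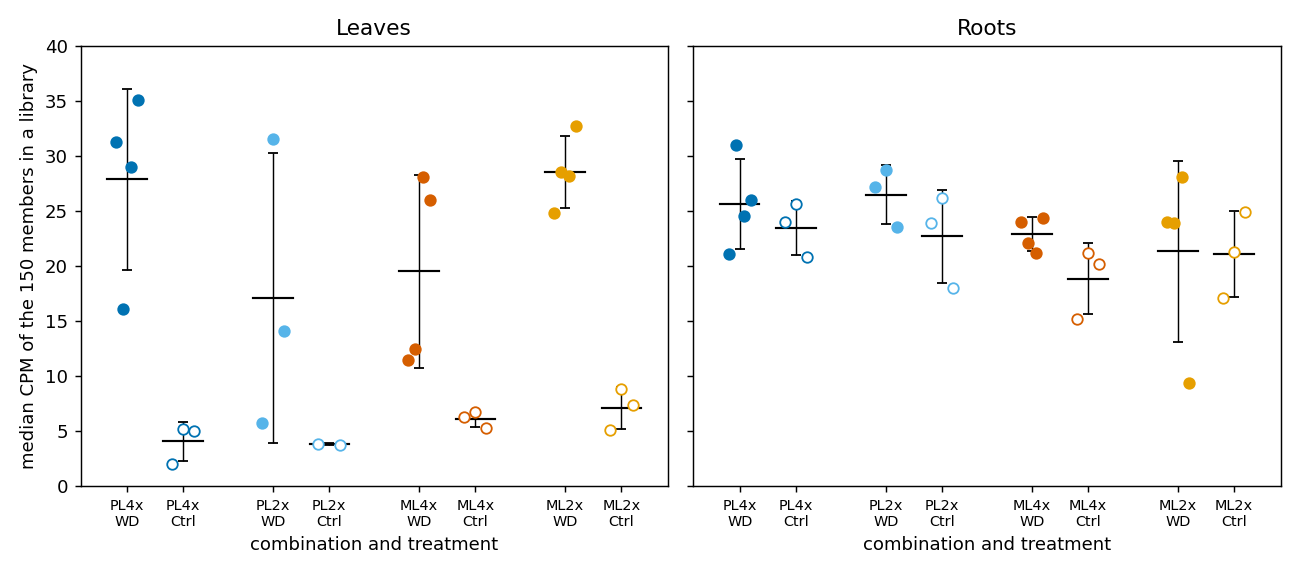
Median CPM of the 150 members in each library (points; filled WD, open Ctrl), with the group mean (bar) and SD (whisker), for leaves and roots and each combination. WD leaves reach 35.1 CPM and Ctrl leaves at most 8.83 CPM, while WD and Ctrl roots overlap between 9.38 and 31.0 CPM.

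Within combinations, the median log2 ratio of the members in leaves was 2.22 in PL4x, 1.66 in PL2x, 1.41 in ML4x and 1.94 in ML2x, beside 0.11, 0.06, 0.07 and 0.07 over all identifiers in the same order. A ratio of at least 1, which is 2-fold, was reached by 150 members in PL4x (13.7% of all identifiers), 113 in PL2x (10.6%), 126 in ML4x (5.48%) and 118 in ML2x (7.15%). Each WD leaf library stood above each Ctrl leaf library of the same combination for 89 members in PL4x (19.9% of identifiers), 77 in PL2x (22.3%), 65 in ML4x (13%) and 103 in ML2x (18.1%). All 4 combinations reached a ratio of 1 for 69 members, 3 of them for 69 and 2 of them for 12. The highest ratio fell in PL4x for 58 members, in PL2x for 54, in ML4x for 4 and in ML2x for 34, and the lowest in 2, 56, 44 and 48 in that order.

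By edgeR's quasi-likelihood test with Benjamini-Hochberg adjustment over 19140 leaf genes, all 150 members were called higher in the mean leaf response, where 27.8% of genes were. In PL4x 113 members were called higher (16.6% of genes), in ML4x 9 (0.298%) and in ML2x 95 (5.96%). For ML4x the count was 38 with DESeq2 (2.3% of genes higher) and 99 with limma's voom (15.8%). In PL2x edgeR called 0 members, as it called 0% of genes, and 86 had an unadjusted p under 0.05; the count was 66 with DESeq2 (6.53%) and 32 with voom (8.79%). Without PL2x WD 1 and ML4x WD 1 the count was 69 in PL2x and 41 in ML4x. Single libraries moved these counts, and calls over all genes moved too. Without PL4x WD 2 edgeR called 3.09% of genes higher in PL2x and 0.963% in ML4x. With all libraries these shares were 0% and 0.298%. The PL2x count was 69 without its own WD 1, 45 without PL4x Ctrl 1, 43 without PL4x WD 2, 27 without ML2x WD 3 and 19 without ML4x WD 2. The ML4x count was 0 without any 1 of its Ctrl libraries, WD 3 or WD 4 and 3 without WD 2, and 24 without WD 1; it was 27, 21 or 5 without PL2x WD 1, 2 or 3, 18 or 5 without PL4x WD 2 or 3, 5 without PL4x Ctrl 2 or 3, 4, 5 or 4 without ML2x Ctrl 1, 2 or 3, and 5 without ML2x WD 4. In ML2x it was 9, 35 or 20 without Ctrl 1, 2 or 3 and 60 without WD 2. The rule used this contrast, so these counts describe the choice.

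Ciclev10013139m.g had the highest mean leaf ratio, at 7.44. It stood at 818, 8.16, 859 and 580 CPM in PL4x WD leaves, against 0.290, 0.749 and 0.369 CPM in PL4x Ctrl leaves. PL2x leaves held 0.441, 915 and 3.64 CPM under WD and 3.47 and 0.333 CPM in Ctrl. Nearly all of its PL rise thus sits in 4 of 7 WD libraries, and PL2x WD 1 lies among the controls. In ML4x leaves it was at 28.2, 721, 679 and 199 CPM under WD against 6.77, 2.51 and 8.98 CPM in Ctrl, and in ML2x leaves at 533, 1553, 1931 and 971 CPM against 2.10, 2.29 and 2.23 CPM. In roots its mean was 1.28 ± 3.00 CPM under WD (n = 15) and 0.489 ± 0.483 CPM in Ctrl (n = 12).

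Ciclev10026277m.g, second by mean leaf ratio at 3.66, also differed widely between WD trees. PL4x WD leaves held 1779, 1.27, 325 and 1484 CPM and PL4x Ctrl leaves 7.35, 6.74 and 4.86 CPM. In PL2x leaves the values were 4.19, 13.6 and 2.04 CPM under WD and 8.01 and 5.22 CPM in Ctrl, so the groups overlapped there. ML2x WD leaves held 5.24, 1932, 289 and 158 CPM, against 8.16, 7.84 and 10.6 CPM in ML2x Ctrl leaves. In ML4x leaves it stood at 5.58, 6.14, 84.5 and 33.0 CPM under WD and at 10.1, 7.60 and 8.23 CPM in Ctrl. In PL4x, ML4x and ML2x some WD trees thus lay below all Ctrl trees of their combination and others far above them.

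The members with the highest WD leaf level differed in what roots held. Ciclev10015577m.g averaged 884 ± 882 CPM in WD leaves and 176 ± 36.6 CPM in Ctrl leaves, with 216 ± 57.5 CPM in WD roots and 185 ± 36.2 CPM in Ctrl roots (SD, n = 15 and 11, and 15 and 12). Ciclev10001412m.g averaged 698 ± 444 CPM in WD leaves and 189 ± 44.7 CPM in Ctrl leaves, yet 1.46 ± 1.497 CPM in WD roots and 0.848 ± 0.545 CPM in Ctrl roots. The first gene was held by both tissues at like levels in irrigated trees, while the second was scarce below ground. A further member, Ciclev10017467m.g, singled out after its values were seen, had 0 counts in all 11 Ctrl leaf libraries and 7.64 ± 8.81 CPM in the 15 WD ones, at least 452-fold higher by a floor of 3 counts over the control group, which covers counting error only.

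Across single trees the members fell into different patterns, which is a description made after the values were seen. In PL2x, WD library 2 was the highest of the 3 for 141 members and library 1 the lowest for 135. In ML4x, WD library 3 or 4 was the highest for 134 members and library 1 the lowest for 95. PL4x WD 2 split the members: it was the highest of the 4 PL4x WD libraries for 47 of them and the lowest for 92. The 47 had median leaf ratios of 1.66 in PL4x, 3.01 in PL2x, 1.52 in ML4x and 0.79 in ML2x, and the 92 had 2.81, 1.17, 1.36 and 2.56 in that order. Ciclev10013139m.g and Ciclev10026277m.g are of the second kind, with 8.16 and 1.27 CPM in PL4x WD 2.

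To see the response in trees that did not choose the genes, the rule was applied to 3 combinations and the list read in the fourth. The 148 genes chosen without PL4x had a median leaf ratio of 1.84 in PL4x, and 144 of them reached 1, beside 0.11 and 13.7% over all identifiers; edgeR called 88 of them higher there (16.6% of genes). Chosen without PL2x, 150 genes had a median of 0.98 in PL2x and 73 reached 1 (10.6% of all), with 0 called (0% of genes) and 45 at an unadjusted p under 0.05. Chosen without ML4x, 150 genes had a median of 1.32 in ML4x and 112 reached 1 (5.48%), and 4 were called (0.298% of genes). Chosen without ML2x, 150 genes had a median of 0.96 in ML2x and 71 reached 1 (7.15%), and 54 were called (5.96% of genes). In each combination the leaf median of genes chosen elsewhere was thus lower than that of the 150 members, which had used it.

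The root side of the rule carried over less. Of the genes chosen without a combination, 116 of 148 lay within 0.5 of no root change in PL4x (67.8% of all identifiers), 113 of 150 in PL2x (71.8%), 87 of 150 in ML4x (70.2%) and 75 of 150 in ML2x (55.4%). In ML4x and ML2x these shares were below those of all identifiers, in PL2x slightly above and in PL4x above. With PL2x WD 2 left out of the leaves, 26 genes reached a leaf ratio of at least 1 in PL2x, and 78 in PL4x, where 79 genes then passed the rule without PL4x.

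In roots the members' mean levels ran from 0.00671 to 433.0 CPM with a median of 25.0 CPM. A mean of at least 1 CPM was held by 133 members, of at least 10 CPM by 96 and of at least 100 CPM by 31, and 17 stayed under 1 CPM. For those 17 the root ratio is bounded by the added 1 CPM, and a change in roots could not be seen on this scale. No member lacked counts in all 27 root libraries, and the fewest was 4 counts. The 143 members that passed the filter on low counts in roots were tested, and 7 were not.

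The highest root levels were those of Ciclev10001979m.g, at 476 ± 143 CPM in WD roots and 379 ± 258 CPM in Ctrl roots, and of Ciclev10000001m.g, at 403 ± 119 CPM and 344 ± 124 CPM (SD, n = 15 WD and 12 Ctrl). For both genes WD and Ctrl root libraries overlapped. In leaves Ciclev10001979m.g averaged 84.7 ± 84.5 CPM under WD and 20.5 ± 13.7 CPM in Ctrl, and Ciclev10000001m.g 343.5 ± 143.8 CPM and 130.3 ± 71.5 CPM.

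A mean root ratio near 0 did not mean that no combination moved. The root ratio lay within 0.5 in all 4 combinations for 52 members, went beyond 1 in at least 1 combination for 27, and was above 0.5 in one combination and below -0.5 in another for 28. In the mean root response edgeR called 26 of 143 members higher and 2 lower, beside 27.3% and 30.7% of the 20452 genes tested. Without PL2x WD 1 the mean response had 17 calls. In PL4x roots 3 members were called higher and 0 lower (8.9% and 9.64% of genes), and in ML4x roots 3 higher and 1 lower (6.38% and 7.97%). Calls in PL4x roots were 0 without PL4x Ctrl 1 or WD 4, 1 without its Ctrl 3, 5, 7 or 14 without its WD 1, Ctrl 2 or WD 2, and 6 without ML2x Ctrl 3 or WD 4. Calls in ML4x roots were 0 without ML4x Ctrl 3 or WD 3, 2 without its WD 1, and 7 without ML2x WD 4 or PL4x WD 2. In PL2x roots edgeR called 0 (2.31% and 1.45%), with an unadjusted p under 0.05 for 13. DESeq2 called 0, voom 34, and edgeR without PL2x Ctrl 1 called 1. Shares of all genes are not given for roots with other tools or without single libraries. Those counts cannot be read as particular to the members. In ML2x roots 2 were called higher and 13 lower (16.5% and 22.9% of genes), and 6, 9, 8 or 9 in either direction without Ctrl 1, Ctrl 2, WD 2 or WD 3. Ciclev10030876m.g, named with the next gene after its values were seen, stood at 37.0, 11.8, 16.1 and 2.68 CPM in ML2x WD roots, against 70.8, 125 and 47.6 CPM in ML2x Ctrl roots (log2 fold change -2.15 ± 0.56, SE, edgeR adjusted p = 0.00602). Ciclev10000193m.g stood at 2.42, 1.84, 3.99 and 0 CPM in ML2x WD roots and at 0.612, 0.817 and 0.768 CPM in ML2x Ctrl roots (1.73 ± 0.61, edgeR adjusted p = 0.0295). The rule's mean over combinations held both, the first falling and the second rising in ML2x roots.

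The members' leaf and root levels lay nearer to each other under water deficit than in irrigated trees. Over all combinations, the leaf mean was below the root mean for 69 of 150 members under WD and for 125 in Ctrl, or 46.0% and 83.3%, beside 63.2% and 71.5% of the 19964 identifiers with at least 1 CPM in the mean of a tissue and treatment. The median log2 ratio of leaf over root was 0.18 under WD and -1.66 in Ctrl (-0.31 and -0.73 over those identifiers). The sign under WD rested on ML2x: the median there was 0.44, while it was -0.03 in PL4x, -0.26 in PL2x and -0.08 in ML4x. Under WD the leaf lay below the root for 36.7% of members in ML2x, against 50.7% in PL4x, 56.0% in PL2x and 51.3% in ML4x. In Ctrl the median was -2.16 in PL4x, -2.20 in PL2x, -1.36 in ML4x and -1.05 in ML2x, below 0 in all 4. Leaf and root were within 2-fold of each other for 81 members under WD and for 32 in Ctrl, or 54.0% and 21.3%. These shares were below the 59.3% and 45.4% of the 19964 identifiers. The low leaf level relative to roots in Ctrl is not particular to the members. For the other 362 genes that reached the leaf limit the median was -0.40 under WD and -1.67 in Ctrl. These 362 still include genes with flat roots that met every limit but ranked below the 150 kept. The leaf change is in the rule, and the irrigated leaf level entered it as a denominator.

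**Figure D3:**
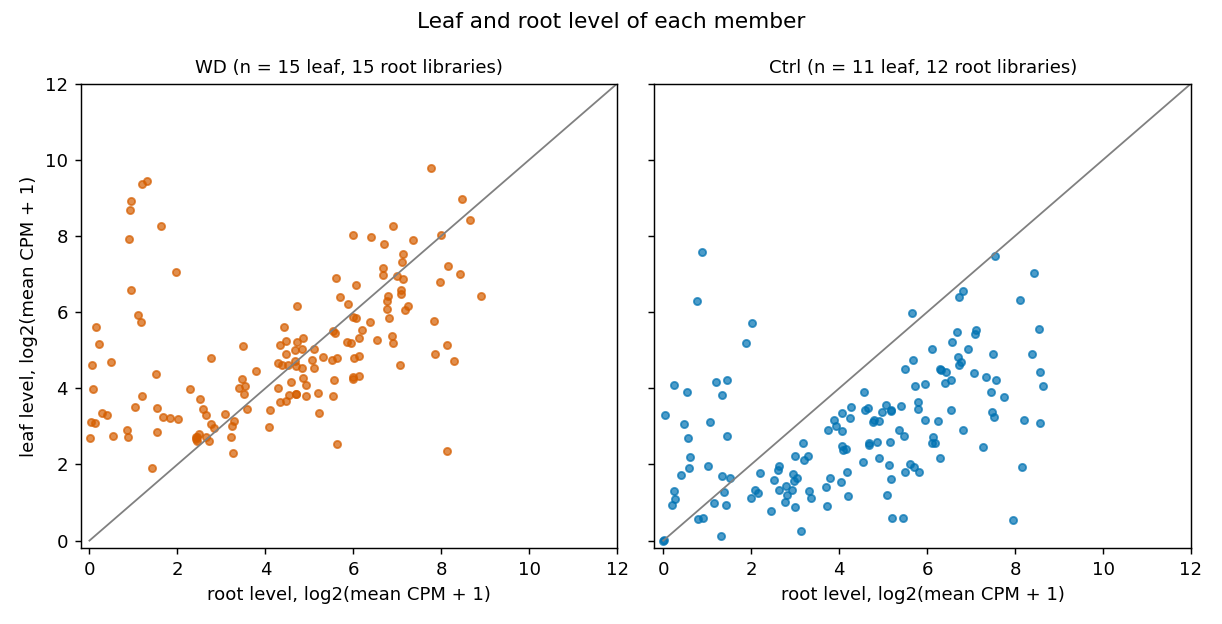
Mean leaf level against mean root level of each member, as log2(mean CPM + 1), under WD (left) and in Ctrl (right); the grey line marks equal levels. Points below the line are lower in leaves, which holds for 69 members under WD and 125 in Ctrl.

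Irrigated leaves were tested against irrigated roots in one fit of both tables. Leaves and roots came from the same trees, but whether a library number marks the same tree in both is not stated, and the fit treated the libraries as independent. Of 148 members tested, 24 were called higher and 105 lower in leaves, beside 35.8% and 46.3% of 21126 genes, and the median log2 difference was -1.38 against -0.22 over all genes tested. The irrigated levels were denominators of the rule, and a low irrigated leaf level raises the leaf ratio. This contrast is thus not wholly separate from the choice, and the excess of lower calls partly describes it. Ciclev10001412m.g held between 115 and 271 CPM in Ctrl leaves, with a median of 190 CPM, and between 0.285 and 2.04 CPM in Ctrl roots, with a median of 0.748 CPM (8.51 ± 0.25, SE, edgeR adjusted p = 1.54e-17, n = 11 and 12). Ciclev10007058m.g held 0 to 25.2 CPM in Ctrl leaves, median 9.28 CPM, and 0 to 0.245 CPM in Ctrl roots, median 0 CPM (8.81 ± 0.62, edgeR adjusted p = 5.59e-10). Without PL2x Ctrl 2 the only PL2x Ctrl leaf library left held 0 counts of it, and its value was 6.52 with an adjusted p of 1.

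The lowest leaf values relative to roots belonged to genes that stayed low in stressed leaves too. Ciclev10009575m.g lay between 0 and 1.64 CPM in Ctrl leaves, median 0.350 CPM, and between 158 and 337 CPM in Ctrl roots, median 234 CPM (-8.68 ± 0.37, SE, edgeR adjusted p = 6.81e-15). Under WD its leaves averaged 4.11 ± 4.92 CPM and its roots 277 ± 69.01 CPM. Ciclev10027584m.g lay between 0 and 1.18 CPM in Ctrl leaves and between 27.6 and 67.4 CPM in Ctrl roots (-5.79 ± 0.29, edgeR adjusted p = 1.29e-13), and averaged 4.83 ± 3.65 CPM in WD leaves. Both stayed below their root levels in every WD leaf library.

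Of the members that differed between the scions in irrigated leaves, most had their lower level in PL. By edgeR 5 members were called higher and 24 lower in PL, beside 6.18% and 6.23% of genes, and 107 of 150 had a negative log2 difference, or 71.3% beside 52.4% of all genes tested. The median difference was -0.44 for the members and -0.03 over all genes. The count depended on the tool and on single libraries. In both directions together edgeR called 19.3% of members, beside 12.4% of genes. DESeq2 called 53 (35.3%, beside 18.2% of genes) and voom 19 (12.7%, beside 19.9%). With voom the members' share was thus below that of all genes. The count by edgeR was 7 without PL2x Ctrl 1 and 13 without ML2x Ctrl 2 or ML4x Ctrl 1. It was 15 without ML2x Ctrl 3, PL2x Ctrl 2 or PL4x Ctrl 1, and 17 without ML4x Ctrl 2. The members' irrigated leaf level was a denominator of the rule in both scions, so this contrast is not wholly separate from the choice. The identifiers are of the kind used for gene models of clementine, another citrus, and between scions a difference in read mapping and one in expression cannot be told apart.

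Ciclev10023260m.g stood at 0, 0.535, 0.891, 0 and 0 CPM in the 5 PL Ctrl leaf libraries. In the 6 ML ones it lay between 1.03 and 5.66 CPM, with a median of 2.88 CPM, and the groups did not overlap. Both PL2x libraries held 0 counts of it, so the size of the fitted difference depends on how 0 counts are treated. Its log2 difference was -5.63 ± 1.38 (SE, edgeR adjusted p = 0.0123), and without PL2x Ctrl 2 the adjusted p was 0.0923. Under WD the gene averaged 5.13 ± 4.94 CPM in PL leaves (n = 7) and 8.11 ± 5.35 CPM in ML leaves (n = 8). Ciclev10024265m.g stood at 0.773, 0.535, 0.461, 0 and 0.0555 CPM in PL Ctrl leaves and between 0.655 and 5.39 CPM, median 3.79 CPM, in ML Ctrl leaves (-4.14 ± 1.27, edgeR adjusted p = 0.0367). That call was lost with voom, with the replicate block, without the libraries of fewest counts, and without PL4x Ctrl 1, PL2x Ctrl 1 or 2, ML4x Ctrl 1 or 2, or ML2x Ctrl 2 or 3, at adjusted p of 0.0509 to 0.149.

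In the other direction, Ciclev10009184m.g stood at 40.7, 17.4, 47.9, 21.9 and 43.2 CPM in PL Ctrl leaves and between 1.90 and 10.5 CPM in ML Ctrl leaves, with a median of 2.59 CPM (3.35 ± 0.59, SE, edgeR adjusted p = 0.000807). Ciclev10032699m.g stood at 5.51, 4.81, 5.13, 5.60 and 7.60 CPM in PL Ctrl leaves and between 0.574 and 1.41 CPM in ML Ctrl leaves, median 0.771 CPM (2.89 ± 0.47, edgeR adjusted p = 0.000313). For both genes each PL library stood above each ML library. Under WD, Ciclev10009184m.g averaged 147 ± 142 CPM in PL leaves and 49.8 ± 35.8 CPM in ML leaves (1.39 ± 0.46, SE, edgeR adjusted p = 0.0847), and Ciclev10032699m.g averaged 14.1 ± 7.41 CPM in PL leaves and 11.7 ± 6.22 CPM in ML leaves.

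In WD leaves the members called between scions in irrigated leaves had smaller differences, and so had all genes called there. The 24 members called lower in PL had a median log2 difference of -0.28 in WD leaves and of -2.49 in Ctrl leaves, beside -0.21 and -1.01 for all 1192 genes called lower, and in WD leaves 0 of the 24 and 12.3% of the 1192 were called lower. The 5 members called higher in PL had a median of 0.61 in WD leaves, with a highest value of 1.39, and of 2.67 in Ctrl leaves, beside 0.50 and 1.18 for all 1183 genes called higher, and in WD leaves 0 of the 5 and 35.4% of the 1183 were called higher. These genes were picked by their Ctrl leaves, so the smaller WD values describe the choice and support no change between the states. Of these 24, 19 were among the 47 members that were highest in PL4x WD 2, and 3 among the 92 that were lowest there. For the members as a whole the test of a scion difference of the response itself called 0 by edgeR (0.00522% of genes in either direction), with 27 higher and 10 lower in PL at an unadjusted p under 0.05 (8.61% and 5.89% of genes), and 2 by DESeq2 (0.773%), 2 by voom (3.21%) and 1 by edgeR without ML4x WD 1. A difference of response between the scions was thus not shown by edgeR for the members. The rule averaged the leaf ratios of both scions, so the members' shares in this test are not wholly separate from the choice.

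**Figure D4:**
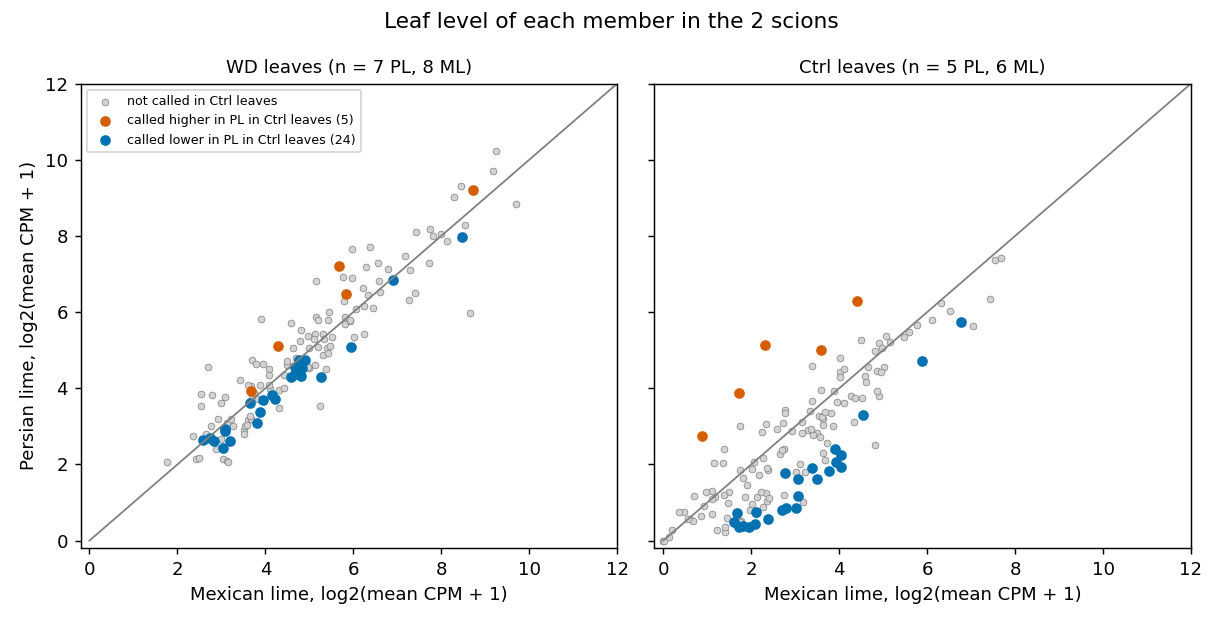
Mean leaf level of each member in Persian lime against Mexican lime, as log2(mean CPM + 1), under WD (left) and in Ctrl (right); the 5 members called higher and the 24 called lower in PL in Ctrl leaves are coloured in both panels. The 24 lie below the line of equal levels in Ctrl leaves and near it under WD.

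In WD leaves 2 members were called higher and 2 lower in PL, beside 3.73% and 1.98% of genes. In both directions together DESeq2 called 7 (4.67%, beside 8.25% of genes) and voom 38 (25.3%, beside 24.4%). Ciclev10012130m.g ranged from 32.8 to 471 CPM in 7 PL libraries, median 147 CPM, and from 15.0 to 174 CPM in 8 ML libraries, median 33.9 CPM (1.57 ± 0.42, SE, edgeR adjusted p = 0.0263). Ciclev10031823m.g ranged from 22.5 to 400 CPM in PL, median 229 CPM, and from 31.0 to 146 CPM in ML, median 75.1 CPM (1.23 ± 0.31, edgeR adjusted p = 0.0173). The scions overlapped for both. Without PL2x WD 2 the adjusted p was 0.0923 for Ciclev10012130m.g and 0.087 for Ciclev10031823m.g, and the first call was also lost without PL4x WD 1 or 4, ML4x WD 1 or 4, ML2x WD 1 or 4, or both PL2x WD 1 and ML4x WD 1, at 0.0504 to 0.0664.

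Ciclev10027953m.g was lower in PL, at 1.69 to 155 CPM with a median of 62.6 CPM against 35.5 to 999 CPM with a median of 351 CPM in ML (-2.64 ± 0.72, SE, edgeR adjusted p = 0.0276), a call lost with the replicate block, without the libraries of fewest counts, and without PL2x WD 1 or 3, ML4x WD 3 or ML2x WD 3, at 0.0521 to 0.0781. Without PL2x WD 2 its difference was -4.50. Its Ctrl leaves averaged 4.66 ± 2.42 CPM in PL and 27.1 ± 7.27 CPM in ML. Ciclev10025151m.g ranged from 2.28 to 21.4 CPM in PL, median 10.5 CPM, and from 8.09 to 73.4 CPM in ML, median 31.9 CPM (-1.71 ± 0.43, edgeR adjusted p = 0.0150). Without PL2x WD 2 the number of members called in WD leaves was 15 (10%, beside 6.47% of genes). Without PL4x WD 2 it was 9 (6%, beside 11.4% of genes).

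No member passed edgeR's test for a difference between rootstocks in irrigated leaves or of the leaf response. Levels in WD leaves were not tested between rootstocks. In irrigated leaves 0 members were called between 4x and 2x rootstocks (0% of genes), with 1 at an unadjusted p under 0.05, and 0 by DESeq2 and 0 by voom. For the rootstock difference of the leaf response edgeR called 0 members in PL and 0 in ML, beside 0% of genes in each. At an unadjusted p under 0.05, 25 members were higher and 6 lower in PL, or 16.7% and 4.0% beside 6.69% and 3.64% of genes, and 0 were higher and 17 lower in ML, or 0% and 11.3% beside 0.857% and 2.4% of genes. In PL, DESeq2 called 4 members (2.67%, beside 0.366% of genes) and voom 38 (25.3%, beside 26.1% of genes), and edgeR called 21 without PL4x WD 2 (14.0%, beside 9.54% of genes). In ML, DESeq2 and voom called 0. The median difference of the response was 0.69 in PL and -0.53 in ML, beside -0.04 and 0.04 over all genes, and whether the scions differ in it was not tested. The rule averaged the leaf ratios that the response difference compares. The members' shares and medians are thus not wholly separate from the choice.

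In irrigated roots, which carry the rootstock's own genome, 2 of 143 members were called higher and 12 lower on the tetraploid, beside 0.763% and 2.28% of 20452 genes. The irrigated root levels were denominators of the rule's root ratio and had to lie under its 400 CPM ceiling. This contrast is thus not wholly separate from the choice. Ciclev10028590m.g stood between 11.8 and 56.9 CPM in 6 tetraploid Ctrl libraries, median 35.4 CPM, and between 57.7 and 777 CPM in 6 diploid ones, median 248 CPM (-3.03 ± 0.51, SE, edgeR adjusted p = 0.00162). Ciclev10009180m.g stood between 49.0 and 69.6 CPM on 4x, median 51.7 CPM, and between 64.3 and 644 CPM on 2x, median 206 CPM (-2.14 ± 0.35, edgeR adjusted p = 0.00145). The highest 2x value of both was in ML2x Ctrl 1, and both calls held without it. The number of members called was 7 without ML2x Ctrl 1, 9 without ML2x Ctrl 2 or ML4x Ctrl 1, and 8 without PL2x Ctrl 2 or PL2x Ctrl 3.

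Both members called higher on 4x stood highest in 1 tree, ML4x Ctrl 1. Ciclev10029437m.g stood at 66.8, 54.0 and 290 CPM in PL4x and 1394, 312 and 115 CPM in ML4x Ctrl roots, against 23.6 to 113 CPM in the 6 diploid libraries (2.46 ± 0.54, SE, edgeR adjusted p = 0.0114). Ciclev10029445m.g stood at 62.6, 37.3 and 191 CPM in PL4x and 930, 165 and 144 CPM in ML4x Ctrl roots, against 26.5 to 94.7 CPM (2.06 ± 0.55, edgeR adjusted p = 0.0427). Without ML4x Ctrl 1 the values were 1.67 (adjusted p = 0.062) and 1.32 (adjusted p = 0.19), so neither was called. The first was also not called without ML2x Ctrl 1, and the second without any 1 of the ML2x or PL2x Ctrl libraries, PL4x Ctrl 3, PL4x WD 3, PL2x WD 2 or ML4x WD 2, or with no filter on low counts. Reads shared by near-identical gene copies could tie such genes together, which was not tested.

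**Figure D5:**
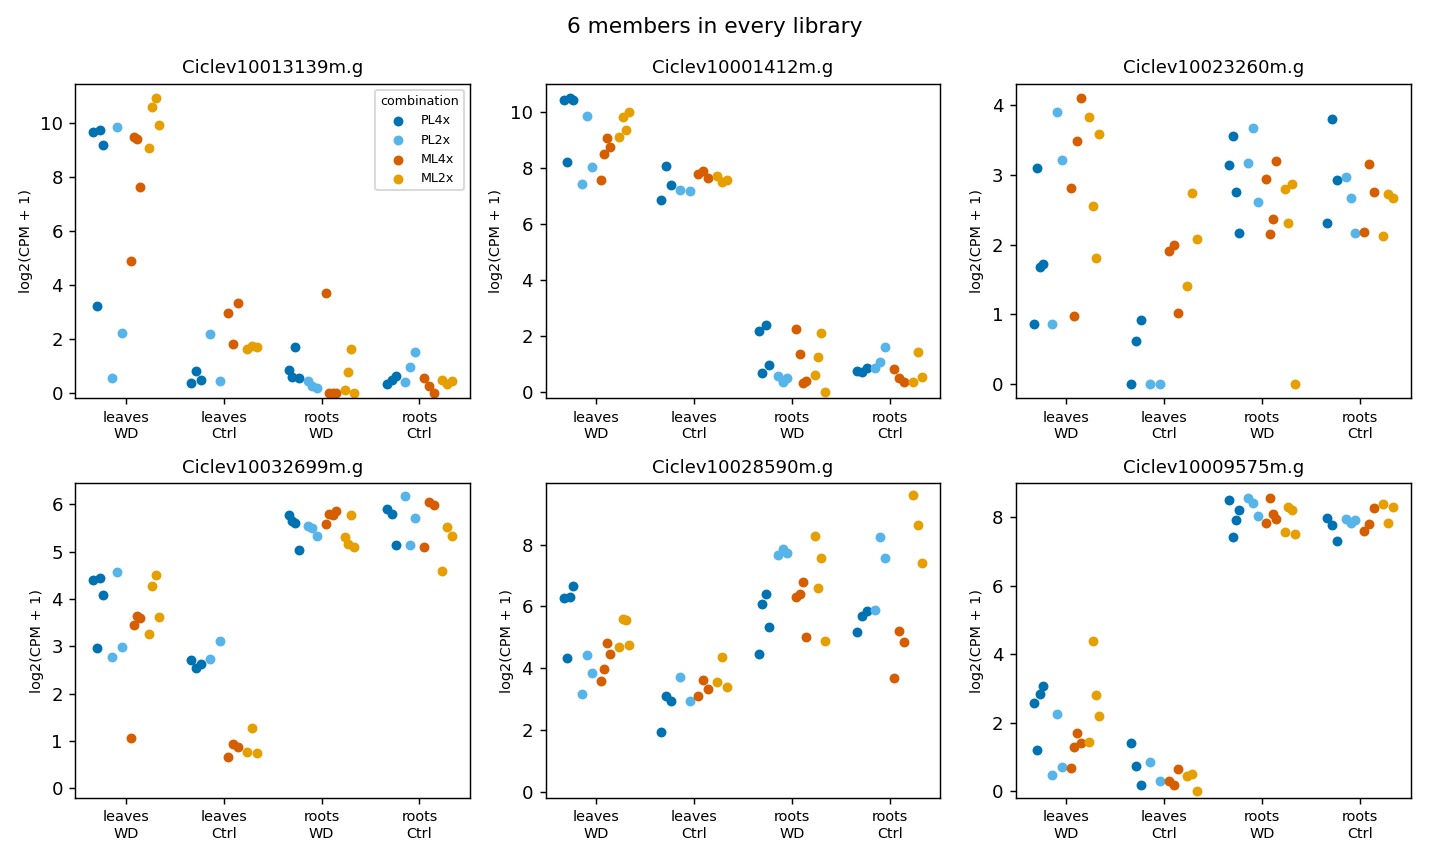
Values of 6 members in every library, as log2(CPM + 1), by tissue and treatment (WD left of Ctrl), coloured by combination. Ciclev10001412m.g is at 0.285 to 2.04 CPM in Ctrl roots and Ciclev10009575m.g at most at 1.64 CPM in Ctrl leaves, while Ciclev10013139m.g spans 0.441 to 1931 CPM in WD leaves.

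The borders of the list are narrow. The last gene kept had a mean leaf ratio of 1.5475 and the first left out 1.5471, and the last of the 172 stood at 1.501. The highest mean root ratio among members was 0.49, with 0.51 for the nearest gene above the limit, and the lowest was -0.44, with -0.51 below it. The highest irrigated mean of a member was 397.8 CPM, and 7 genes were left out by that ceiling alone, the lowest at 437.1 CPM.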

How the data were processed

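Leaves and roots of the same trees were sequenced, with the libraries of a group from separate trees, and the files hold raw read counts per gene as deposited, whole numbers with no normalization. Libraries came from a stranded mRNA kit, per the labels' protocols, and Trimmomatic and HTSeq are named in the submitters' processing notes; the aligner, genome build, versions and strand setting were not given in the sources used here. Overlapping or near-identical genes could thus share reads. CPM were computed from library totals. The members and lists were chosen with earlier results of these data known. Tests used edgeR 4.0.16 in R 4.3.3 (TMM, filterByExpr by group, quasi-likelihood F test, adjusted p under 0.05 over all genes) on 19140 leaf, 20452 root and 21126 joined genes. The fit was also run on simulated counts with the same spread for every gene, a setting simpler than these data. DESeq2 1.42.0 and limma 3.58.1 (voom) were alternatives. SE were worked out from the test, as the absolute log2 fold change divided by the square root of its F statistic. The common coefficient of variation was 0.38 in leaves and 0.371 in roots. In 64 pairs of libraries within groups the smallest mean chi-square per gene was 16.4, so no pair within a group agreed within sampling noise; pairs between groups were not compared. Groups come from the sample titles. At most 2 identifiers in each direction are named per comparison: for levels and responses the highest, and for tested contrasts the extremes among called members.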

Additional observations from a re-analysis of the deposited data

Results flagged for a closer look

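Among the groups of 4 libraries, 156 were checked for 1 library far from the others, over 24 named members, the members' median level and their share of counts, and 16 stood out; chance alone gives about 1 in 20 such groups. In ML2x WD leaves the members' share of counts was 0.865% in library 1 and at least 1.41% in the other 3. In PL4x WD leaves, library 2 was far from the others for 4 members: Ciclev10001412m.g was low at 297.4 CPM, while Ciclev10009184m.g at 459 CPM, Ciclev10024265m.g at 12.9 CPM and Ciclev10030876m.g at 58.1 CPM were high. In ML4x WD leaves, library 1 was low for Ciclev10032699m.g at 1.08 CPM and for Ciclev10009180m.g at 17.8 CPM. In ML2x WD leaves Ciclev10026277m.g reached 1932 CPM in library 2.

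In ML4x WD roots, library 1 stood high for 3 members that are scarce in roots, with 11.8 CPM of Ciclev10013139m.g against 0 in the other 3, 6.56 CPM of Ciclev10027953m.g against at most 0.391, and 3.66 CPM of Ciclev10009184m.g against at most 0.507. In ML2x WD roots, library 4, which has the fewest counts of all, stood high for Ciclev10026277m.g at 4.47 CPM and for Ciclev10029437m.g at 169.8 CPM, and library 3 for Ciclev10007058m.g at 0.142 CPM. In PL4x WD roots Ciclev10026277m.g was high at 2.43 CPM in library 1 and Ciclev10000193m.g low at 0.716 CPM in library 2.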

How the results depend on the processing

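Of the members, the rule kept 103 with 0.25 CPM added, 68 with 4 CPM, 87 with TMM sizes and 112 to 147 without 1 library. For genes chosen without a combination, 4 CPM gave 73 ratios of at least 1 in ML4x, and 47, with 36 flat roots, in PL4x; TMM sizes gave 46 in PL2x, and 68, with 56 flat roots, in PL4x. Without 1 library these counts ran from 26 to 104 in PL2x, 78 to 146 in PL4x, 88 to 125 in ML4x and 55 to 90 in ML2x, and flat roots from 104 to 119, 60 to 128, 75 to 98 and 56 to 92. Called members by DESeq2 and voom were 66 and 32 for the leaf response of PL2x and 38 and 99 for ML4x, 2 and 2 for its scion difference, 4 and 38 for its rootstock difference in PL, 53 and 19 between scions in Ctrl leaves, 7 and 38 in WD leaves, and 22 and 27 between rootstocks in Ctrl roots. In the root response DESeq2 gave 8 in ML4x and 5 in PL4x, and voom 66 in the mean, 34 in PL4x, PL2x and ML2x and 10 in ML4x. Shares of all genes are not given for these root counts or those between rootstocks. The counts cannot be read as particular to the members. In the mean leaf response voom called 61.7% of all genes and edgeR 48.2%. Without PL2x WD 1 and ML4x WD 1 the leaf response had 69 in PL2x and 41 in ML4x, and without the libraries of fewest counts the scions differed in 10 members in Ctrl leaves.

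Without 1 library, called members ran from 148 to 150 for the mean leaf response, 81 to 117 in PL4x, 0 to 69 in PL2x, 0 to 27 in ML4x and 9 to 101 in ML2x, 0 to 1 for its scion difference, 0 to 21 for its rootstock difference in PL and 0 to 0 in ML, 7 to 40 between scions in Ctrl leaves and 3 to 15 in WD leaves. In roots they ran from 17 to 37 for the mean response, 0 to 14 in PL4x, 0 to 1 in PL2x, 0 to 7 in ML4x, 6 to 20 in ML2x, 7 to 17 between rootstocks, and from 124 to 135 between tissues. Shares of all genes are not given beside these ranges, so they cannot be read as particular to the members. The cause was not tested. No value changed sign.

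Correlations of same-numbered libraries ran from -0.39 to 0.39 and were not above 0.1 in every pair, so the numbers were not used to pair samples; no source says if leaf and root libraries with 1 number share a tree. With the replicate block 25 members were called between scions in Ctrl leaves, 14 between rootstocks and 131 between tissues.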
